A study of Mus musculus with 9 samples.

Results

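Transcripts of 10 integrin genes that adherent stromal cells use were followed in cells of the mouse thymus after irradiation: Itga1, Itga5, Itga6, Itga7, Itga8, Itgav, Itgb1, Itgb3, Itgb4 and Itgb5. They were taken by name, and each was read by every probe set annotated to its symbol alone. This gave 29 probe sets for 10 genes, of 45101 probe sets and 18193 genes with a probe set of a single symbol. Of the 10 genes, 7 reached a log2 value of 4 on at least 3 of the 9 arrays and entered the test, among 10937 genes in all. Itga5, Itga7 and Itgb3 lay below that level on every array.

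The samples were RNA of thymic non-hematopoietic stromal cells from female C57BL/6J mice of 6 to 8 weeks. Cells that carry CD45, the surface protein of white blood cells, had been depleted with magnetic beads. One group was untreated, and both other groups had received SL-TBI, 550 cGy from a cesium source without hematopoietic rescue, and were taken at day 4 or at day 7. SL-TBI is usually read as sublethal total body irradiation. Each group had 3 arrays, and each sample pooled several mice. The labels call the pooled cells ECs, an abbreviation they do not explain. Whether replicates were separate pools of mice is not in the labels, so p-values measure the spread between these samples, which may be technical.

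Integrins are cell surface receptors made of an alpha and a beta chain, and the pair decides which matrix protein is bound. Alpha v pairs with several beta chains, among them beta 3 and beta 5, and such pairs bind vitronectin, fibronectin and other proteins that hold an Arg-Gly-Asp (RGD) motif. Alpha 5 beta 1 is the classical fibronectin receptor, alpha 8 beta 1 binds nephronectin, alpha 1 beta 1 binds collagens, and alpha 6 beta 1, alpha 7 beta 1 and alpha 6 beta 4 bind laminins. In the thymus, epithelial cells, fibroblasts, endothelial cells and the cells of vessel walls each carry some of these receptors, and developing T cells carry integrins too.

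The RNA was a mixture whose makeup differed between the groups. Ptprc, the gene of CD45, read 12.22 ± 0.25 in untreated samples, 4.64 ± 0.53 at day 4 and 9.51 ± 0.22 at day 7 (log2, mean ± SD, n = 3), so the defining marker of the depleted cells was present. The summed level of 12 thymocyte genes (log2 of the sum of the linear values) lay between 14.35 and 14.62 in untreated samples, between 7.36 and 7.83 at day 4 and between 11.88 and 12.04 at day 7. For 5 genes of dividing cells the ranges were 12.08 to 12.77, 6.61 to 6.82 and 10.56 to 10.80 in the same order. Stromal markers differed as well. The summed level of 10 epithelial genes was 15.10 to 15.23, 15.56 to 15.66 and 15.63 to 15.68, and that of 10 fibroblast genes 14.80 to 15.20, 15.88 to 16.22 and 15.52 to 15.80. For 10 endothelial genes, of which Tie1 was below the level of 4 throughout, it was 7.47 to 9.21, 8.67 to 9.48 and 10.65 to 10.82. The ranges for 6 mesothelial genes were 9.37 to 9.83, 10.20 to 10.75 and 10.89 to 11.52. Of 9 macrophage genes, Adgre1, Cd68, C1qa and C1qc were below the level of 4 throughout, and the summed level was 9.58 to 10.55, 9.34 to 9.66 and 8.65 to 8.82. Each sum follows its brightest genes. Of 5 tested macrophage genes, 1 was higher and 2 lower than untreated at each time (limma, adjusted p under 0.05). Lyz2, the brightest, read 10.05, 10.27 and 9.19 in untreated samples and 7.78, 7.90 and 7.58 at day 7. Mertk read 3.87, 4.26 and 4.06, then 5.34, 5.95 and 6.03. Krt8 and Krt18 were the brightest epithelial genes. Of 10 epithelial genes, 6 were higher and 1 lower at day 4, and 6 and 2 at day 7. For these and the macrophage genes, the shares of all tested genes were 41.8% higher and 21.4% lower at day 4. At day 7 they were 32.1% and 22.0%. Fewer cells of a type and less RNA per cell cannot be told apart in such bulk samples, and the part of these shifts in the integrin results was not tested.

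Arrays of a group differed in how many tested genes lay at least 1 log2 unit from both other arrays. In untreated replicate 3, 251 lay below and 57 above, in untreated replicate 2, 62 below and 17 above, and in day 7 replicate 3, 3 below and 41 above; no other array had more than 26 in either direction. The difference between 3′ and 5′ control probe sets of Actb, a sign of RNA length, was 2.28 ± 0.15, 3.13 ± 0.17 and 2.52 ± 0.21 in the order untreated, day 4 and day 7. That of Gapdh was 0.90 ± 0.13, 1.37 ± 0.24 and 0.90 ± 0.21. Both were highest at day 4, and their part in the results was not tested.

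The probe sets of the integrin genes differed in whether they gave signal. All 4 probe sets of Itgb5 and both of Itga1 and of Itga6 passed the filter, as did the single probe set of Itgb4. Of 6 probe sets of Itgb1 2 passed, of 5 of Itgav 1 and of 2 of Itga8 1. For the genes that did not pass, the highest value on any array was 3.93 over the 4 probe sets of Itga5, 2.51 for the 1 of Itga7 and 3.82 over the 2 of Itgb3. The lowest value in the table was 2.27. A transcript below the level was not detectable on this array, which does not show that it was absent. The level of a probe set depends on its own probes, so levels are compared between samples and never between genes.

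**Figure D1:**
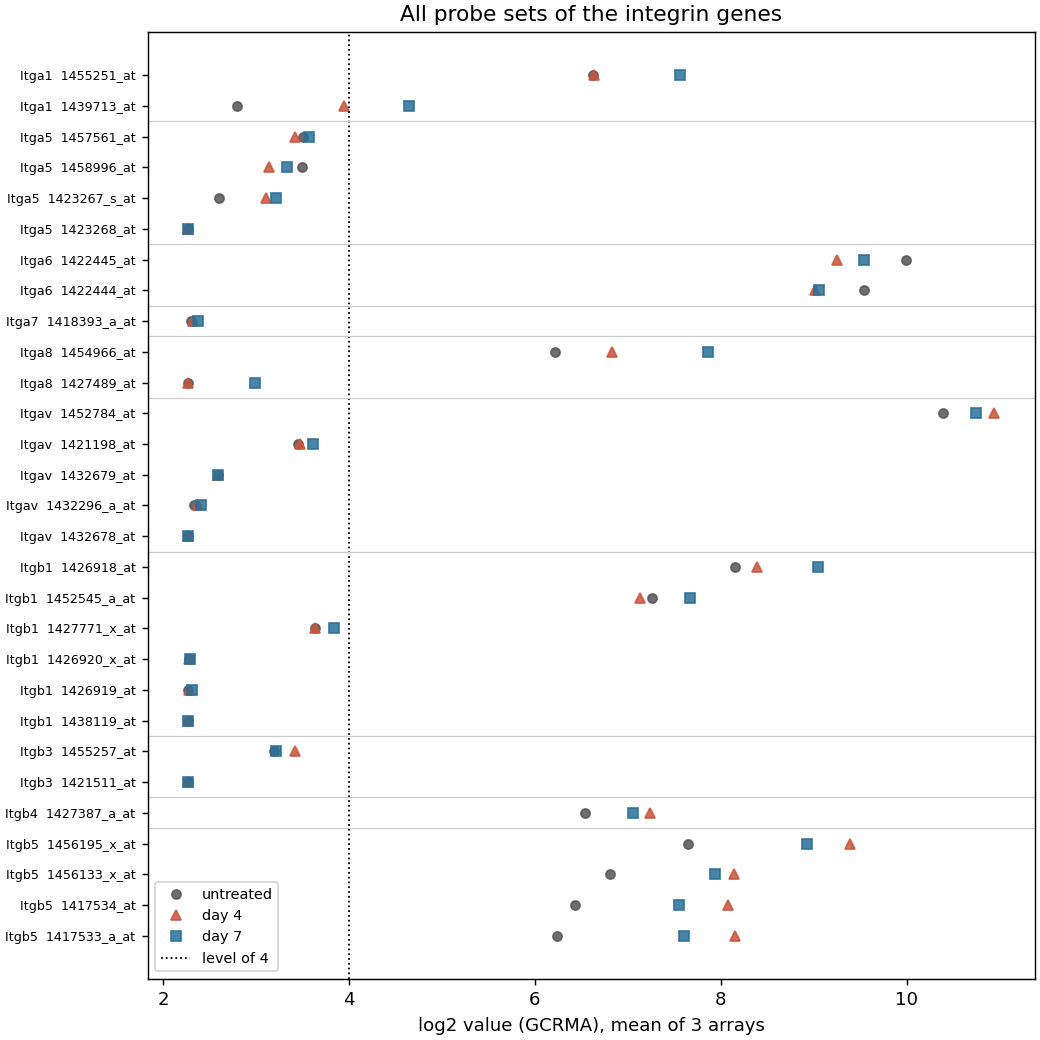
Mean log2 value of each of the 29 integrin probe sets in untreated, day 4 and day 7 samples (3 arrays each), with the dotted line at the level of 4. The 4 Itgb5 probe sets all sit right of the line and show untreated samples lowest and day 4 samples highest, while every probe set of Itga5, Itga7 and Itgb3 sits left of it.

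Below, each gene is given by its brightest probe set, judged by the mean of 9 arrays. Itgav, Itgb4 and Itgb5 were above untreated at both times, Itga6 was below it at both times, and Itga1 and Itgb1 were called above it at day 7 alone; centred on 4 stromal lists, Itga1, Itgav, Itgb1 and Itgb4 were below untreated at day 7. Between day 4 and day 7, Itga1, Itgb1 and Itgb5 were called and Itga6, Itga8, Itgav and Itgb4 were not. Centred on the 4 stromal lists, Itgav, Itgb4 and Itgb5 were called lower in that comparison, as were 7016 of all 10937 tested genes. Itga1 and Itgb1 were then not called. The day 7 mean of Itga8 was carried by a single array.

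**Figure D2:**
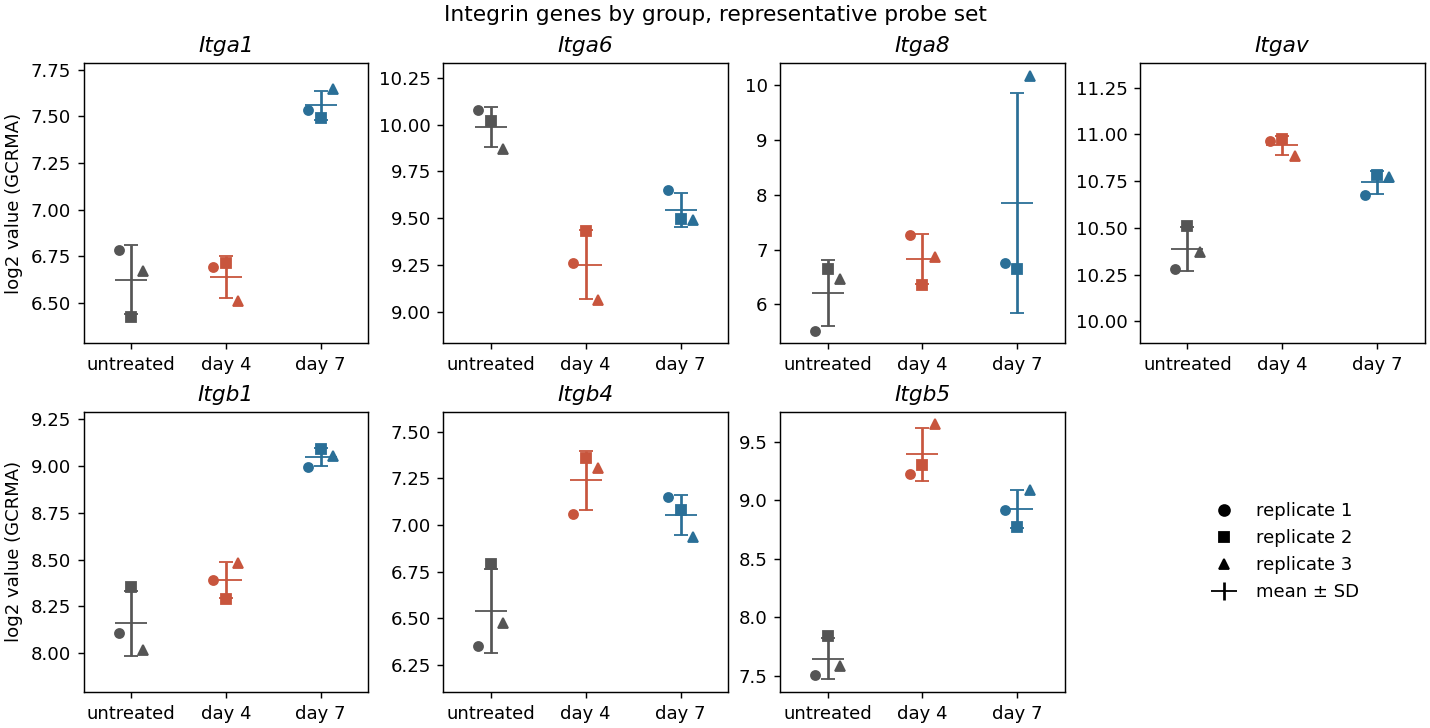
Log2 value of the 7 tested integrin genes on each array, by group, with the mean and SD of 3 arrays; marker shapes give the replicate number. Itgb5 rises from values between 7.51 and 7.84 in untreated samples to between 9.23 and 9.65 at day 4, and in Itga8 the third day 7 array stands alone at 10.18; under other scalings the whole set of differences moves, as the plot of the 5 scalings shows.

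The largest change among these receptors at day 4 was that of Itgb5, the beta 5 chain of the vitronectin receptor alpha v beta 5. Its partner Itgav, the alpha v chain, moved the same way by less. Sequence upstream of their transcription starts is given because both genes rose at both times. The promoters are from RefSeq on GRCm38.p6 and cover the 250 bases before the start on the gene's strand, 5′ to 3′; capitals mark the GC box, GGGCGG on either strand (CCGCCC), a sequence bound by Sp factors. An entry was given for 6 of the 10 integrin genes. The start used for Itgb5 was the 5′ end of the annotated gene, and that for Itgav was not. The Itgav promoter is chr2:83724147-83724396 on the plus strand, and that of Itgb5 is chr16:33829415-33829664, also on the plus strand.
Itgav: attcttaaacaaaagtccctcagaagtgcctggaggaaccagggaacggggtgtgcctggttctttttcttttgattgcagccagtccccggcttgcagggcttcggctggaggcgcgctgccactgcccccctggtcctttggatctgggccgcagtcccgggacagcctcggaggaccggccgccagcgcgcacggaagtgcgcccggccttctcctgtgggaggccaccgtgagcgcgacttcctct
Itgb5: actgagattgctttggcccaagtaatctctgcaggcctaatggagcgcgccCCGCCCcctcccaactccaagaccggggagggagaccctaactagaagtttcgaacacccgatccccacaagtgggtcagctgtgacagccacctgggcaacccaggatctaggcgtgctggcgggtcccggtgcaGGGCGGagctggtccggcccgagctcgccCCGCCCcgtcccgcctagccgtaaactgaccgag
The Itgb5 stretch held 3 GC boxes and the Itgav stretch 0; a GC box was present in 32.7% of 32851 mouse promoters of this length. Both stretches held 18 CpG, against a median of 6, and 64.4% (Itgav) and 65.2% (Itgb5) of their bases were G or C, against a median of 52.4%. On either strand, neither held the TATA box TATAAA, the AP-1 site TGANTCA or the TEAD core GGAATG, which 12.4%, 6.7% and 12.6% of promoters held. Such matches describe the letters only.

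Itgb5 read 7.51, 7.84 and 7.59 on the untreated arrays, 9.23, 9.30 and 9.65 at day 4 and 8.92, 8.77 and 9.09 at day 7. Every irradiated array lay above every untreated array, and the day 4 arrays lay above the day 7 arrays without overlap. The difference from untreated was 1.75 at day 4 (SE 0.14, 3.35-fold, adjusted p = 1.4e-05) and 1.28 at day 7 (2.43-fold, adjusted p = 1.7e-04; limma, Benjamini-Hochberg over all genes tested). Only 3.04% of the genes tested had a higher difference at day 4, and 5.02% at day 7. The probe set is of a kind (_x_at) in which some probes may bind other transcripts, so the other 3 probe sets were read too. They gave 1.92, 1.64 and 1.33 at day 4 and 1.37, 1.12 and 1.13 at day 7, the same direction in each. From day 4 to day 7 Itgb5 fell by 0.47 (1.38-fold, adjusted p = 0.0421). That fall was the least firm of the calls: the threshold was missed in 17 of 24 alternatives, and the other probe sets gave -0.55, -0.52 and -0.20 with adjusted p of 0.130, 0.0620 and 0.412.

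Itgav read 10.28, 10.51 and 10.37 in untreated samples, 10.97, 10.98 and 10.88 at day 4 and 10.67, 10.78 and 10.77 at day 7. The 3 groups did not overlap, with day 7 between untreated and day 4. The difference from untreated was 0.55 at day 4 (SE 0.09, 1.47-fold, adjusted p = 6.3e-04) and 0.36 at day 7 (1.28-fold, adjusted p = 0.00890, limma). Day 7 against day 4 gave -0.20 (adjusted p = 0.127). It was called when centred on 4 stromal marker lists (-0.70, adjusted p = 0.00655) and with array weights (-0.21, adjusted p = 0.0475). The differences from untreated were small enough to depend on the scaling. Centred on 10 epithelial genes they were 0.22 and 0.25 (adjusted p = 0.165 and 0.136). Centred on the 4 stromal marker lists they were -0.0035 and -0.70, so that the day 7 direction turned. The mean of all 5 probe sets, 4 of which lay below 4 on every array, gave 0.13 and 0.12.

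Of the other partners and relatives in this family, Itgb3, the beta 3 chain shared by the platelet and vascular vitronectin receptors, stayed below the level of 4 on every array. Of 7 platelet and megakaryocyte genes, all but Pf4 were below the level too. Itga5, the alpha chain of the fibronectin receptor, was also below it with each of its 4 probe sets. No fold is given for either.

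Itga8 is the alpha chain of a nephronectin receptor found on vascular smooth muscle and other mesenchymal cells. It read 5.52, 6.65 and 6.46 in untreated samples, 7.27, 6.35 and 6.87 at day 4 and 6.75, 6.65 and 10.18 at day 7. The third day 7 array lay 3.43 above the next, and the other 8 arrays of the 3 groups overlapped. The differences from untreated were 0.62 at day 4 (95% confidence interval, unadjusted, -1.27 to 2.51; adjusted p = 0.539) and 1.65 at day 7 (-0.25 to 3.54; adjusted p = 0.124, limma). Without that array the day 7 difference was 0.49 in place of 1.65, and the difference between day 7 and day 4 was -0.13 in place of 1.03. The second Itga8 probe set read 2.27 on 8 arrays and 4.42 on the same day 7 array.

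The array that carried Itga8 also stood high in genes of smooth muscle. Of 10937 genes tested, Itga8 had the second largest excess of that array over the other day 7 arrays, after Cytl1 with 4.12. Acta2, smooth muscle actin, read 12.63 there against 10.18 and 10.58, and Myh11, smooth muscle myosin, was 1.43 above the next day 7 array. Cnn1, the smooth muscle protein calponin, read 6.26 there and at most 2.30 on the other 8 arrays. Of the 10 genes of the pericyte and smooth muscle list, these 3 were above both other day 7 arrays by at least 1. Of the 10937 genes tested, 41 lay so high, and Cnn1 was not among those tested. Mcam was above both other arrays by 0.56, Cspg4 by 0.30 and Notch3 by 0.003. The pericyte genes Rgs5, Kcnj8 and Abcc9 were not above both, nor was Des, and Cspg4 was below the level of 4 on every array. The summed level of the list was 11.86 to 11.98 in untreated samples, 11.54 to 11.73 at day 4, and 12.27, 12.35 and 13.42 on the 3 day 7 arrays. Npnt, which encodes nephronectin, read 9.50, 9.24 and 10.01 on the day 7 arrays. The part of smooth muscle RNA in the Itga8 value was not tested.

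**Figure D3:**
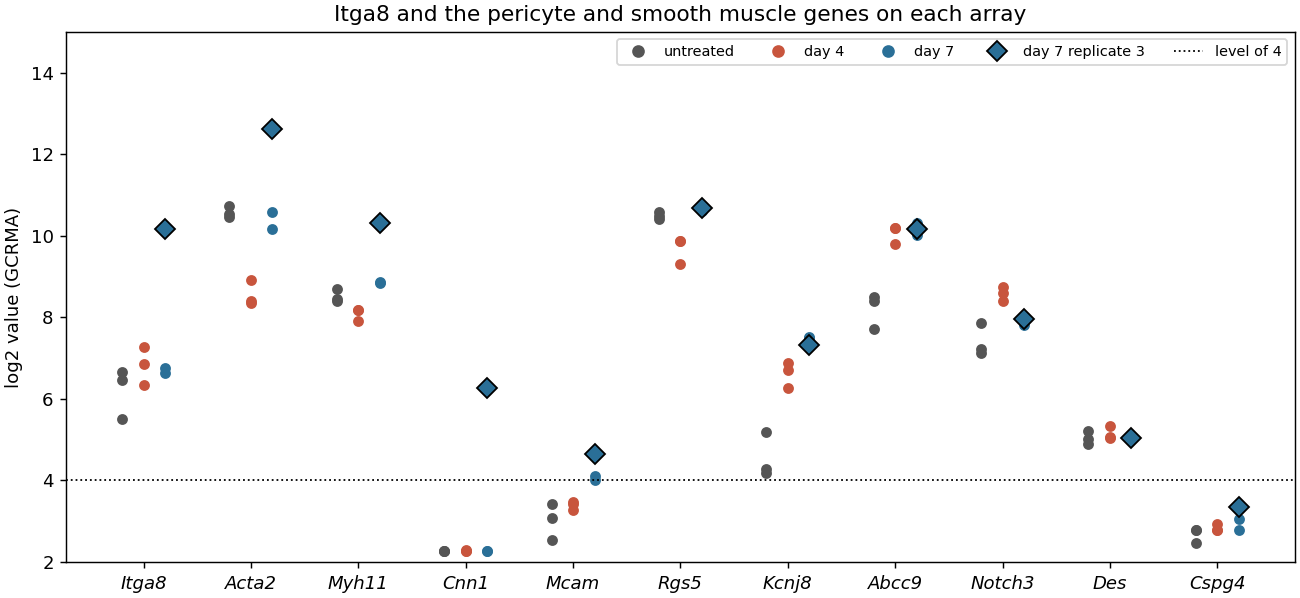
Log2 value of Itga8 and of the 10 pericyte and smooth muscle genes on each array, by group; the diamond is day 7 replicate 3 and the dotted line the level of 4. Itga8, Acta2, Myh11 and Cnn1 stand above the other day 7 arrays on that array, while Rgs5, Abcc9, Kcnj8 and Des do not.

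The chains of the collagen receptor alpha 1 beta 1 were called at day 7 and not at day 4. Itga1, whose product pairs with beta 1 alone, and Itgb1, whose product pairs with many alpha chains, were near untreated values at day 4 and higher at day 7. Their upstream sequences are shown because the genes rose at the same time. The Itga1 promoter is chr13:115101965-115102214 on the minus strand and the Itgb1 promoter chr8:128685404-128685653 on the plus strand, printed and marked as above.
Itga1: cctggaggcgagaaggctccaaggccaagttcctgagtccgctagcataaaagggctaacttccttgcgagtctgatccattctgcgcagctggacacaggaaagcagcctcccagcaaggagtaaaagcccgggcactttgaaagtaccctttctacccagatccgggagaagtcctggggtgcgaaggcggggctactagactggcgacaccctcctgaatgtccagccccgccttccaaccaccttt
Itgb1: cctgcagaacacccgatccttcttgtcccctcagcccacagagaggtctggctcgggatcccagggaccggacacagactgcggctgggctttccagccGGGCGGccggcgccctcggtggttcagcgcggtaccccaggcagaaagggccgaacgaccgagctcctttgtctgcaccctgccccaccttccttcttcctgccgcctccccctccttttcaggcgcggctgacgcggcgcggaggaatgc
The Itgb1 stretch held 1 GC box and the Itga1 stretch 0. Itgb1 held GGAATG, the core of the TEAD site, 1 time, and Itga1 did not; neither held a TATA box or an AP-1 site, and the matches in Itgb1 did not overlap. G and C made up 57.6% of the Itga1 stretch, which held 10 CpG, and 68.0% of the Itgb1 stretch, which held 21.

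Itga1 read 6.78, 6.42 and 6.67 in untreated samples, 6.69, 6.72 and 6.51 at day 4 and 7.54, 7.49 and 7.65 at day 7. The untreated and day 4 arrays overlapped, and all day 7 arrays lay above both groups. At day 4 the difference from untreated was 0.01 (95% confidence interval, unadjusted, -0.24 to 0.27; adjusted p = 0.919), a value that turned to between -0.13 and -0.54 under the other 4 scalings. At day 7 it was 0.93 (1.91-fold, adjusted p = 2.4e-04, limma) and positive under each scaling except centring on the 4 stromal lists, which gave -0.12. Day 7 against day 4 gave 0.92 (1.89-fold, adjusted p = 9.0e-04), or 0.42 under that centring (adjusted p = 0.0816). The second Itga1 probe set was dimmer, with all untreated arrays below 4. It was at least 1.56-fold higher at day 7 (adjusted p = 0.00426), the bound being taken from the level of 4. At day 4 its values of 4.17, 3.91 and 3.77 lay above the untreated values of 2.27, 2.54 and 3.57 (adjusted p = 0.0305), a call that the brighter probe set did not give. Its difference of 0.69 between day 7 and day 4 was not called (adjusted p = 0.235), and the arrays of these groups overlapped.

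Itgb1 read 8.11, 8.35 and 8.02 in untreated samples, 8.39, 8.29 and 8.48 at day 4 and 9.0, 9.09 and 9.06 at day 7. The untreated and day 4 arrays overlapped, and day 7 lay above both. The difference from untreated was 0.23 at day 4 (95% confidence interval, unadjusted, -0.01 to 0.47; adjusted p = 0.0842) and 0.89 at day 7 (1.85-fold, adjusted p = 2.2e-04, limma), which kept its sign except when centred on the 4 stromal lists (-0.17). Day 7 was 0.66 above day 4 (1.58-fold, adjusted p = 0.00285), or 0.16 under that centring (adjusted p = 0.473). The second probe set gave -0.13 at day 4 (adjusted p = 0.419) and 0.40 at day 7 (adjusted p = 0.0347), so the size of the day 7 rise differed between the probe sets while its sign did not. The day 4 value was called when untreated replicate 2, the highest untreated array, was left out (0.33, adjusted p = 0.0149).

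The chains of the laminin receptors moved in opposite directions, except at day 7 when centred on the 4 stromal lists. Itga6, the alpha 6 chain, which thymic epithelial cells and endothelial cells carry among others, was the single tested member below untreated at both times. It read 10.08, 10.02 and 9.87 in untreated samples, 9.26, 9.43 and 9.06 at day 4 and 9.65, 9.49 and 9.49 at day 7. Both irradiated groups lay below every untreated array, and the day 4 arrays lay lowest. The second Itga6 probe set did not separate day 4 (9.01 ± 0.19) from day 7 (9.05 ± 0.19). Ptprc and the summed thymocyte genes had the order of groups that the brighter Itga6 probe set showed. The part of thymocyte RNA in the Itga6 values was not tested. Itga6 fell by 0.74 at day 4 (SE 0.11, 1.67-fold, adjusted p = 4.9e-04) and by 0.45 at day 7 (1.36-fold, adjusted p = 0.00969, limma). The sign and the call held under all 5 scalings and with the second probe set (-0.53 and -0.49, adjusted p = 0.0158 and 0.0268). Day 7 against day 4 gave 0.29 (adjusted p = 0.0865, limma), with -0.21 when centred on the 4 stromal lists. It was called when centred on the median of all genes (0.39, adjusted p = 0.0250) or on the epithelial list (0.52, adjusted p = 0.0137). Array weights also gave a call (0.27, adjusted p = 0.0441). The second probe set gave 0.04 (adjusted p = 0.873).

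Itgb4, the beta 4 chain, which pairs with alpha 6 alone and anchors epithelial cells to laminin in hemidesmosomes, rose. It read 6.35, 6.79 and 6.48 in untreated samples, 7.06, 7.36 and 7.30 at day 4 and 7.15, 7.08 and 6.94 at day 7. All irradiated arrays lay above all untreated arrays, and the day 4 and day 7 arrays overlapped. The difference was 0.70 at day 4 (SE 0.13, 1.62-fold, adjusted p = 0.00171) and 0.51 at day 7 (1.43-fold, adjusted p = 0.0108, limma), which became 0.14 (adjusted p = 0.599) and -0.54 when centred on the 4 stromal lists. Day 7 against day 4 gave -0.18 (adjusted p = 0.335), or -0.68 under that centring (adjusted p = 0.0117). Itga7, the alpha 7 chain of a laminin receptor of muscle, did not exceed 2.51 on any array.

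The other parts of the hemidesmosome did not move as one. Of 9 listed genes, which include laminin chains of epithelial basement membranes and basal keratins, 8 were tested; 5 rose, 1 fell and 2 were not called at day 4 (median 0.59), and 3 rose, 2 fell and 3 were not called at day 7 (median 0.19). Of all tested genes, 41.8% were called higher and 21.4% lower at day 4 (median 0.20), and 32.1% and 22.0% at day 7 (median 0.09). Centred on the 4 stromal lists, 1 rose and 3 fell at day 4 (median 0.03), and 0 rose and 6 fell at day 7 (median -0.87). Of all 10937 tested genes, 1323 were then called higher and 4405 lower at day 4 (median -0.36). At day 7 these counts were 294 and 8673 (median -0.97). Cd151, a tetraspanin that binds laminin receptors, rose by 0.91 and 0.94 (adjusted p = 1.3e-04 and 2.2e-04; -0.12 at day 7 when centred on the 4 stromal lists). Krt5, a basal epithelial keratin, rose by 1.74 at day 4 (adjusted p = 8.7e-05) and by 0.68 at day 7 (adjusted p = 0.0182, and -0.38 under that centring). Krt14, the other basal keratin of the list, went the other way. It read 10.25, 10.60 and 9.74 in untreated samples, 9.30, 9.57 and 9.25 at day 4 and 9.21, 9.10 and 8.84 at day 7. Krt5 and Krt14 are also in the epithelial list used for that centring, which thus removed part of their own change. Col17a1, the transmembrane collagen of the hemidesmosome, read 6.12, 6.04 and 4.99 in untreated samples, 5.0, 5.24 and 5.24 at day 4 and 4.26, 3.96 and 3.73 at day 7. It fell by 1.74 at day 7 (3.33-fold, adjusted p = 9.4e-04), while the day 4 value of -0.56 was not called (adjusted p = 0.107). So Itgb4 and Col17a1, partners in the same structure, had differences of opposite sign at day 7, except when centred on the 4 stromal lists, where both were below 0.

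Counted over the 7 tested integrins, 3 rose and 1 fell at day 4, against 41.8% of all tested genes called higher and 21.4% called lower. At day 7, 5 rose and 1 fell, against 32.1% and 22.0%. From day 4 to day 7, 2 rose and 1 fell, against 9.78% and 17.6%. Centred on the 4 stromal lists the counts were 1 risen and 2 fallen at day 4, 0 and 3 at day 7, and 0 and 3 from day 4 to day 7. Of all 10937 tested genes, 1323 were then called higher and 4405 lower at day 4. At day 7 these counts were 294 and 8673, and from day 4 to day 7 they were 417 and 7016. With so many genes called, a call in itself says little about an integrin. As deposited, 63.2%, 54.1% and 27.3% of all genes were called in either direction in the 3 comparisons. The shares of the tested integrins were 57.1%, 85.7% and 42.9%. The groups did not overlap for 4, 6 and 5 of the 7 integrins, against 67.7%, 62.4% and 51.7% of all genes. The median difference of the tested integrins was 0.55, 0.89 and 0.29, and that of all genes 0.20, 0.09 and -0.10. The first and second comparisons share the untreated arrays, and the third shares the irradiated arrays with both.

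**Figure D4:**
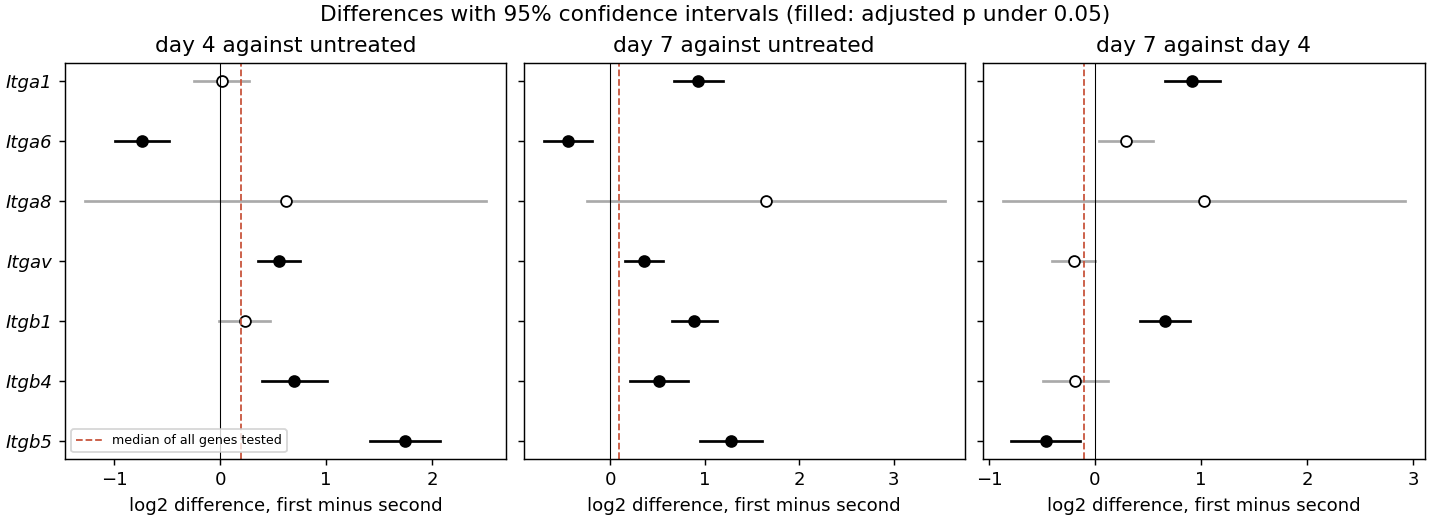
Log2 difference of each tested integrin gene in the 3 comparisons (first group minus second) with its unadjusted 95% confidence interval; filled points have an adjusted p under 0.05 and the dashed line is the median of all genes tested. Itgb5 is farthest from 0 among the filled points at day 4 and day 7 against untreated, Itga6 alone is filled below 0 there, and Itga1, Itgb1 and Itgb5 are filled in day 7 against day 4; centring on 4 stromal lists turns the day 7 differences of Itga1, Itgav, Itgb1 and Itgb4 below 0.

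Itgal, Itga4 and Itgb2, integrin chains of leukocytes, fell at both times. Of 12 other alpha chains, 10 had a probe set and 3 were tested. Of these, 1 rose and 2 fell at day 4, and 0 rose and 2 fell at day 7. The shares of all tested genes, also for the beta chains below, were 41.8% higher and 21.4% lower at day 4. At day 7 they were 32.1% and 22.0%. Itgal, the alpha chain of the leukocyte integrin LFA-1, was 9.70 ± 0.26 in untreated samples, 4.33 ± 0.56 at day 4 and 6.57 ± 0.13 at day 7 (mean ± SD, n = 3), and Itga4, the alpha 4 chain, was 7.92 ± 0.28, 3.78 ± 0.39 and 4.62 ± 0.05. Itgb2, the beta chain of LFA-1, fell by 2.41 at day 4 (adjusted p = 6.4e-07) and by 1.45 at day 7 (adjusted p = 3.9e-05). These 3 genes were lowest at day 4 and higher again at day 7, as were Ptprc and the summed thymocyte genes. Itga3, an epithelial laminin receptor chain, rose by 0.63 at day 4 (adjusted p = 0.0248), a call lost under the other 4 scalings, and was 0.46 above untreated at day 7 (adjusted p = 0.0850; -0.59 when centred on the 4 stromal lists).

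Of 6 other beta chains and relatives 4 were tested; 1 rose, 1 fell and 2 were not called at day 4, and 2 rose and 2 fell at day 7. Itgb8, whose product pairs with alpha v alone and activates latent TGF-beta, read 8.30, 8.58 and 7.27 in untreated samples, 7.82, 7.68 and 7.28 at day 4 and 6.20, 6.31 and 6.91 at day 7. It fell by 1.58 at day 7 (2.98-fold, adjusted p = 0.00369), while its day 4 value of -0.46 was not called (adjusted p = 0.253). Itgb5 and Itgb8 thus stood on opposite sides of untreated at day 7; centred on the 4 stromal lists the Itgb5 difference stayed above 0 but lost its call (0.22, adjusted p = 0.322). Itgb7, a leukocyte beta chain that pairs with alpha 4, lay near the level of 4: below it on all untreated arrays and at 4.10, 4.10 and 4.26 at day 7. It was called at least 1.11-fold higher at day 7 (adjusted p = 0.0234; -0.65 when centred on the 4 stromal lists) and was not called at day 4 (0.21, adjusted p = 0.178). Itgbl1, a secreted protein with repeats like those of beta integrins, rose by 2.10 at day 4 (adjusted p = 0.00228) and by 1.70 at day 7 (adjusted p = 0.00870). Itga2, Itga2b, Itga9, Itga10, Itgae, Itgam, Itgax, Itgb6 and Itgb2l were below the level of 4 on every array.

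Genes of the matrix proteins that these receptors bind were mostly above untreated. Of 30 listed genes, 25 had a probe set and 24 were tested; 19 rose, 2 fell and 3 were not called at day 4 (median 0.98), and 19 rose, 0 fell and 5 were not called at day 7 (median 0.80). Of all tested genes, 41.8% were called higher and 21.4% lower at day 4 (median 0.20), and 32.1% and 22.0% at day 7 (median 0.09). The list holds Plec, a linker inside the cell that is not a matrix protein. Centred on the 4 stromal lists, 7 rose and 3 fell at day 4, and 2 rose and 6 fell at day 7 with a median of -0.26. Of all 10937 tested genes, 1323 were then called higher and 4405 lower at day 4. At day 7 these counts were 294 and 8673, with a median of -0.97. Lamb1, a chain of many laminins, was 9.80 ± 0.17, 10.84 ± 0.08 and 10.67 ± 0.13 in the order untreated, day 4 and day 7, and Col3a1, a fibrillar collagen, was 13.20 ± 0.16, 14.30 ± 0.13 and 13.92 ± 0.17. Lamb2, the laminin beta 2 chain, rose by 1.48 and 1.58 (adjusted p = 3.0e-04 and 3.6e-04). Under that centring Lamb1 and Col3a1 were -0.19 and -0.34 at day 7. Col3a1, like Col1a1 and Col1a2 of this list, is also in the fibroblast list used for that centring. Part of their own change was thus removed.

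The following ligands were picked after their values were seen, because the chains above bind them. Vtn, vitronectin, bound by alpha v beta 5, rose by 1.84 at day 4 and 2.02 at day 7 (adjusted p = 8.7e-04 and 7.9e-04). Fn1, fibronectin, rose by 1.60 and 0.96 (adjusted p = 2.4e-04 and 0.00554; -0.10 at day 7 when centred on the 4 stromal lists). Mfge8, another RGD protein bound by alpha v beta 5, was not called at either time (-0.18 and 0.13, adjusted p = 0.0821 and 0.206; -0.93 at day 7 under that centring). Col4a1, a collagen of basement membranes that alpha 1 beta 1 binds, was 11.05 ± 0.18 in untreated samples, 11.48 ± 0.10 at day 4 and 11.98 ± 0.18 at day 7; its differences of 0.43 and 0.93 (adjusted p = 0.0155 and 4.1e-04) were both -0.13 under that centring. Tnc and Thbs1, matrix proteins of tissue repair, were the 2 that fell at day 4, by 0.57 and 0.87 (adjusted p = 0.00997 and 0.0217). Thbs1 was 1.32 above untreated at day 7 (adjusted p = 0.00357), a change of side between the times.

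Inside the cell, integrins connect to actin through talin, kindlin, the ILK complex with its parvins and PINCH proteins, tensins, filamins and other adapters. Of 32 listed genes 29 were tested; 18 rose, 2 fell and 9 were not called at day 4 (median 0.56), and 21 rose, 0 fell and 8 were not called at day 7 (median 0.76). Of all tested genes, 41.8% were called higher and 21.4% lower at day 4 (median 0.20), and 32.1% and 22.0% at day 7 (median 0.09). Centred on the 4 stromal lists, 9 rose and 6 fell at day 4 (median 5.1e-04), and 4 rose and 13 fell at day 7 (median -0.30). Of all 10937 tested genes, 1323 were then called higher and 4405 lower at day 4 (median -0.36). At day 7 these counts were 294 and 8673 (median -0.97). Parvb, beta-parvin, read 3.39, 4.02 and 3.91 in untreated samples, 6.65, 6.95 and 6.81 at day 4 and 6.35, 6.19 and 6.24 at day 7. Its differences were 3.03 and 2.49 (adjusted p = 1.1e-06 and 1.3e-05), from a base near the level of 4. Tns3, tensin 3, rose by 1.14 at day 4 and by 0.72 at day 7 (adjusted p = 1.0e-05 and 2.5e-04; -0.33 at day 7 when centred on the 4 stromal lists). Flna, filamin A, read 9.71, 9.65 and 9.81 in untreated samples, 9.0, 8.82 and 8.79 at day 4 and 10.15, 10.02 and 10.28 at day 7. It fell by 0.85 at day 4 (adjusted p = 1.2e-04) and was 0.43 above untreated at day 7 (adjusted p = 0.00697; -0.63 under that centring). Filamin A and talin 1 (Tln1, which fell by 0.50, adjusted p = 0.0164) were the 2 that fell at day 4.

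For each tested integrin, the genes with the most alike values over the 9 arrays were those with the smallest root mean square difference after each gene's mean was removed. For Itgb5 these were Kank2 (0.09 log2 units) and Bbs2 (0.12), for Itgav Dusp12 (0.03) and Adh5 (0.04), and for Itgb4 Sec31a (0.06) and Bcr (0.08). For Itga6 they were Rnps1 (0.07) and Sin3b (0.08). Itgb1 was most like Bvht (0.09) and Pdlim1 (0.11), and Itga1 most like Sc5d and Psmb10 (0.18 each). Itga8 had the least close neighbours, Fgl2 (0.45) and Lmod1 (0.53), and both of these also stood high on day 7 replicate 3, by 2.31 and 2.10 over the next day 7 array. The measure was chosen among 10937 genes and describes these 9 arrays.

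The 5 scalings differ in what is held constant between arrays, which matters here because the makeup of the samples shifted. In the deposited scaling the median of all genes was 0.20 above untreated at day 4 and 0.09 at day 7. Centring on the median of all genes left 0.05 and centring on the epithelial list gave -0.14 at day 4. Centring on the mean of the epithelial, fibroblast, endothelial and pericyte lists gave -0.36 at day 4 and -0.97 at day 7, the endothelial list's own mean being 2.53 higher at day 7 than in untreated samples. Of the called genes, 66.1% were higher at day 4 in the deposited scaling, 54.6% after centring on the median, 39.5% after the epithelial centring and 23.1% after the stromal centring. At day 7 the share was 59.3% as deposited and 3.28% after the stromal centring. For day 7 against day 4 it was 35.8%, and 48.6%, 54.0%, 69.2% and 5.61% after quantile normalization and the median, epithelial and stromal centrings. The rise of Itgb5 at day 4 and the fall of Itga6 at both times kept sign and call under all 5 scalings.

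**Figure D5:**
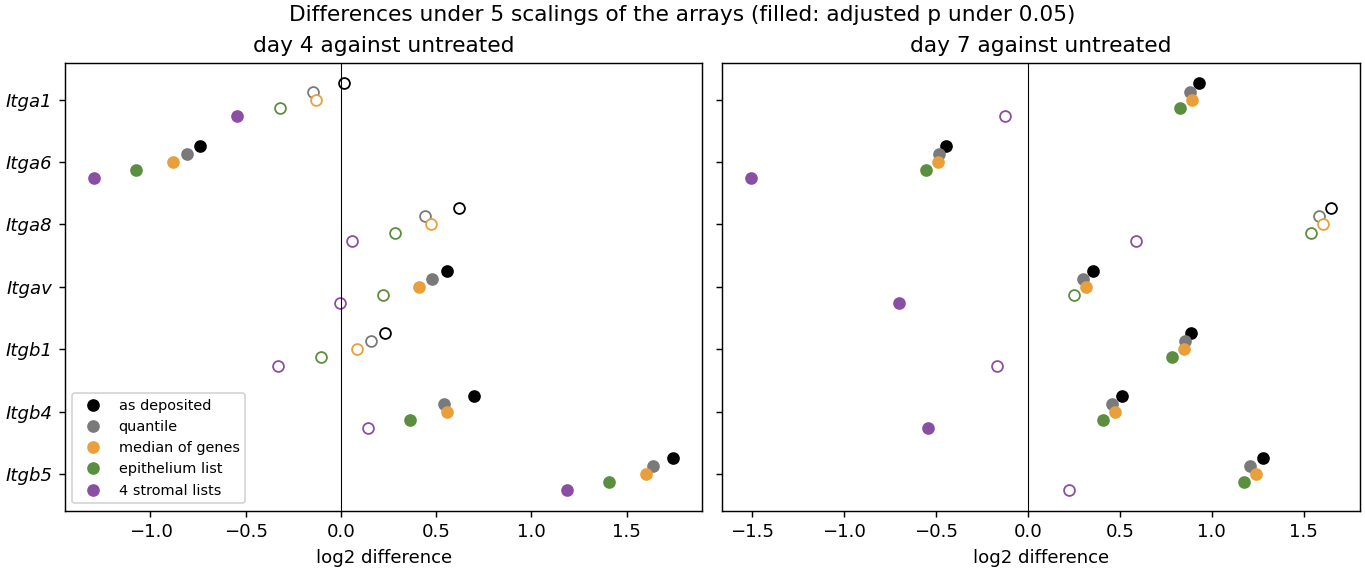
Log2 difference of each tested integrin gene at day 4 and at day 7 against untreated under 5 scalings of the arrays (as deposited, quantile, centred on the median of the genes, on the epithelial list and on 4 stromal lists); filled points have an adjusted p under 0.05. Itgb5 stays right of 0 and Itga6 left of 0 in both panels, while the stromal centring puts Itga1, Itgav, Itgb1 and Itgb4 left of 0 at day 7, at -0.12, -0.70, -0.17 and -0.54.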

How the data were processed

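RNA of 9 samples was hybridised to 9 Affymetrix mouse expression arrays, whose probe sets read sequence near the 3′ end of transcripts. The authors deposited 1 log2 value per probe set and array, which per the submitters' processing notes came from GCRMA (background correction, normalization between arrays and a summary per probe set). The GCRMA version is not given in the sources used here. That the logarithm has base 2 was judged from the range of values. Between 31.4% and 32.8% of values per array lay within 0.01 of the lowest, 2.27, where differences are compressed. Arrays have no read depth; 3 per group is what limits the precision.

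Of 45101 probe sets, 64 were controls, 34945 had a single symbol, 932 several and 9160 none; 34741 were matched to RefSeq by gene identifier, which changed 0 symbols. For each gene the probe set with the highest mean was used, and genes at 4 or above on at least 3 arrays were tested; 7256 dim genes were set aside. All 9 arrays entered 1 model, in which group was the sole term (limma 3.58.1, lmFit and eBayes, R 4.3.3), with Benjamini-Hochberg adjustment over 10937 genes and a threshold of 0.05; a fold is 2 to the power of the difference. The steps were tested on simulated data. Genes named beside the integrins are the 3 of each list with the smallest F-test p, the 2 most alike genes, Ptprc, and some picked after their values were seen. The last include the ligands said to be picked so, Itgb7, Tln1, Krt14, Lyz2, Mertk and the genes discussed with Itga8. The integrins and the lists were chosen with earlier results of these data known. Alternatives were no filter, a level of 6, other probe set rules, 4 scalings, an intensity trend, array weights, a replicate block and leaving out arrays. Plots were made in Python 3.11 with matplotlib 3.10.9.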

Additional observations from a re-analysis of the deposited data

Results flagged for a closer look

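For 3 integrins the change from untreated differed between the times, by the direct test of day 7 against day 4 in limma, and both differences rest on the same untreated arrays. Itga1 was 0.92 higher at day 7 (adjusted p = 9.0e-04), higher on 3 of 3 arrays than any day 4 array. Its second, dimmer probe set gave 0.69 (adjusted p = 0.235), with arrays that overlapped. Itgb1 was 0.66 higher at day 7 (adjusted p = 0.00285), again on 3 of 3 arrays. Itgb5 differed by -0.47 (adjusted p = 0.0421), lower on 3 of 3 arrays. Of all tested genes, 51.7% had no overlap between day 7 and day 4. With 3 arrays a group, no test for a single outlying array was made.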

How the results depend on the processing

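Of the 7 tested integrins, 4 were called at day 4, 6 at day 7 and 3 in day 7 against day 4. Centring on the 4 stromal lists gave 3 at day 7, all lower: Itga6, which was called lower as deposited, and Itgav and Itgb4, which had been called higher. Of all 10937 tested genes, 294 were then called higher and 8673 lower. In day 7 against day 4 that centring gave 3 as well, all lower: Itgav, Itgb4 and Itgb5. Array weights gave 5 in day 7 against day 4. Leaving out 1 array at a time gave 4 to 5, 6 to 6 and 2 to 3. Over all alternatives, single-gene results kept direction and side of the threshold in 400 cases, lost the call in 27, gained one in 11 and turned in 21. The cause was not tested. Several alternatives cannot change a difference and so cannot turn it. These are the other filters, the intensity trend, the replicate block and leaving out an array of a group outside the comparison.

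The turned values were as follows. Itga1 at day 4 was -0.14 with quantile normalization, -0.13 with median centring, -0.32 with epithelial centring, -0.54 with stromal centring, -0.076 with array weights, and -0.087 to 0.093 with 1 array left out. With stromal centring, Itgav at day 4 was -0.0035, Itgb1 at day 4 -0.33, and at day 7 Itga1 was -0.12, Itgav -0.70, Itgb1 -0.17 and Itgb4 -0.54, and Itga6 in day 7 against day 4 was -0.21. Itgb1 at day 4 was -0.11 with epithelial centring and -0.13 in its second probe set; in day 7 against day 4, epithelial centring gave 0.030 for Itgav and 0.045 for Itgb4. Itga8 in day 7 against day 4 was -0.13 to 1.63 with 1 array left out, lowest without day 7 replicate 3, and -0.13 without replicate 3 of untreated and of day 7 together, an alternative chosen after seeing the data. That alternative also ended the call of Itgav at day 7 (0.33, adjusted p = 0.0583), and array weights gave Itga8 a call at day 7 (2.10, adjusted p = 0.0426).

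With the replicate block 4, 6 and 2 integrins were called, the one lost being Itgb5 in day 7 against day 4 (adjusted p = 0.0525). Same-numbered arrays of different groups had deviations correlated between -0.12 and 0.18, and 5 of 9 arrays were most alike an array of their own number, so the numbers were not taken to pair samples.

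Counts of all genes called moved by over 1.5 times with stromal centring, from 5915 to 8967 at day 7 and from 2991 to 7433 in day 7 against day 4, and the latter fell to 1905 without day 4 replicate 2 and to 1760 without day 7 replicate 2. Values below the level of 4 limit what can be said of Itga5, Itga7 and Itgb3.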
